A study of Drosophila melanogaster with 20 samples.

Results

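The insulin receptor gene InR, the insulin-like peptide gene Ilp5, the adipokinetic hormone gene Akh and the limostatin gene Lst were followed in brains of Drosophila melanogaster. They were found by exact gene symbol in the array's annotation. All 4 genes had 1 probe set each, among 11982 genes with a probe set of a single symbol and 18769 probe sets that were not controls. Brains had been dissected from wild-type flies (line 5905) and from flies null for the microRNA miR-34 (line 0110), either 3 d or 20 d old, with no treatment other than age. Each of the 4 groups had 5 arrays of the Affymetrix Drosophila 2 type, 20 in all. The labels give no sex, no number of brains per sample and 1 name per line, so what the missing miR-34 does and what else sets the lines apart cannot be told apart. Nor do they say whether the 5 samples of a group are separate flies. A p-value here therefore measures only the spread between samples, which may be technical. InR lies on chromosome arm 3R, as mir-34 does, Ilp5 and Akh on 3L and Lst on 2R, by the RefSeq table of Release 6.

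InR and Ilp5 were chosen by measured values, for their lower level in 20 d null than in 20 d wild type, and Lst for its higher level in 20 d than in 3 d wild type. The values that led to Akh are not recorded in the sources used here. Levels and differences of the 4 genes are therefore descriptions with no test, save 3 comparisons between groups outside the differences just named. Those are null against wild type at 3 d for InR and Ilp5, and 20 d against 3 d in null for Lst. Earlier results of these data were known at the choice, so these tests are not fully independent of it. Their spread was estimated over all 20 arrays. With only the 10 arrays compared, the limma adjusted p was 1.47e-06 for InR and 0.325 for Ilp5.

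In flies, insulin-like peptides are made by a small cluster of neurons in the brain, the insulin-producing cells, and are released into the blood. They bind the receptor tyrosine kinase InR on target cells, which acts through the adaptor Chico and the kinase Akt and keeps the transcription factor Foxo out of the nucleus. Adipokinetic hormone comes from the corpora cardiaca, an endocrine gland behind the brain. It acts on the receptor AkhR in the fat body to free stored lipid and sugar, much as glucagon does in mammals. Limostatin is a peptide of the same gland that lowers insulin release when food is short.

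Signals are in the array's own units, scaled by the authors so that every array had the same trimmed mean. The scale differs between probe sets, so apart from the filter, which asks whether a probe set lies above the median of its array, a signal is compared only with the same gene on other arrays. Log2 differences are on the scale log2(signal + 16), which understates changes of low signals, and each is given with its standard error from a linear model over all probe sets (limma). In whole brain RNA, fewer cells of a type and less RNA per cell cannot be told apart. Marker genes of neurons and glia were measured on every array. The neuronal gene elav lay between 779 and 1196 on all 20 arrays, and the glial gene repo between 785 and 939. Summed over their members, both marker lists had lower group means at 20 d. The neuron sum went from 9426 to 7757 in wild type and from 9766 to 8226 in null. The glia sum went from 8609 to 7751 and from 8798 to 7735. Marker genes of gut, fat body, muscle and blood cells were also measurable and differed between groups. Within a group, pairs of arrays had a Pearson's r of 0.989 to 0.997 over the 9806 probe sets tested, and between groups the highest was 0.971.

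**Figure D1:**
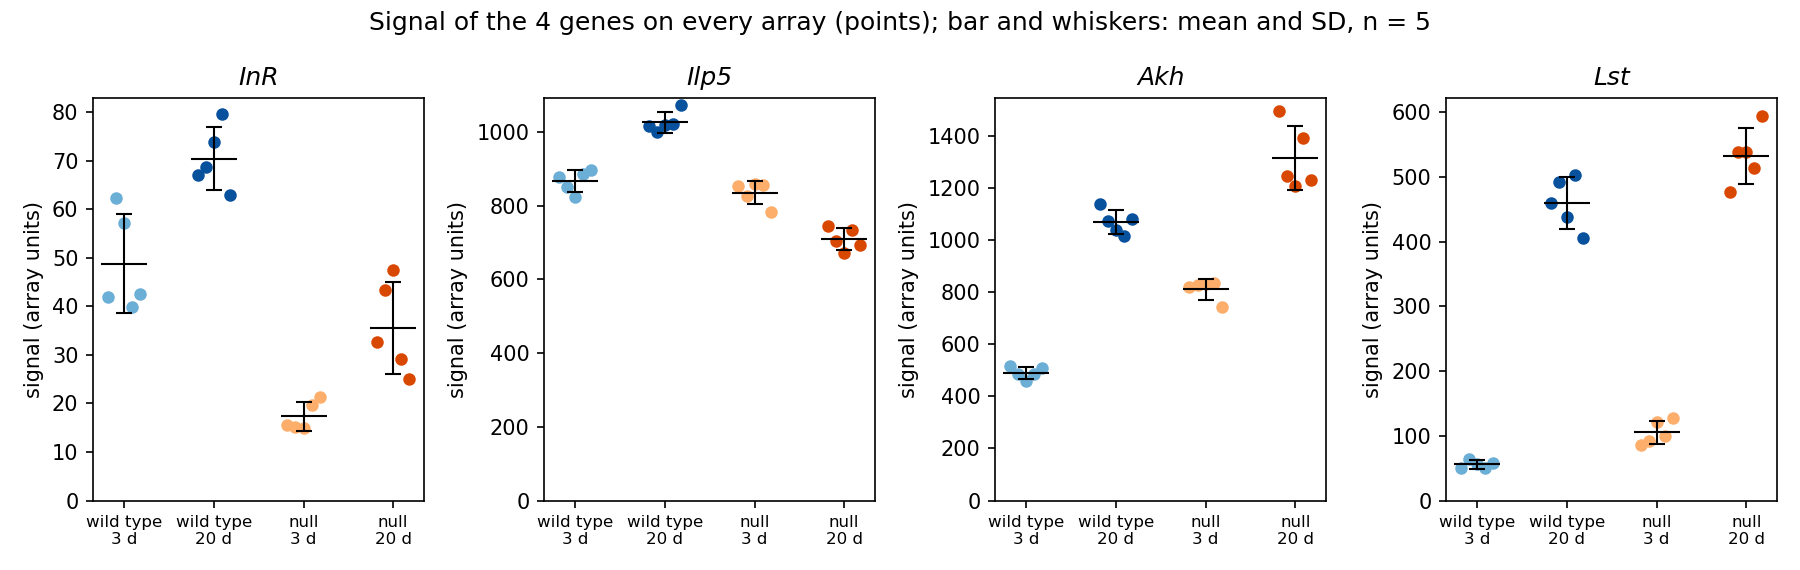
Signal of InR, Ilp5, Akh and Lst (array units, axes from 0) on each of the 20 arrays, by line and age. Points are arrays, the horizontal bar is the mean and the whiskers are the SD (n = 5). InR was lower in null at both ages, Ilp5 was lower in null at 20 d, and Akh and Lst were higher at 20 d in both lines.

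InR, the receptor, had signals of 42.0, 62.3, 57.1, 39.8 and 42.6 on the 5 arrays of 3 d wild type. In 3 d null its signals were 15.5, 15.2, 15.0, 19.6 and 21.3. All 5 null arrays lay below all 5 wild-type arrays, by at least 18.5 units. The InR means were 48.8 ± 10.2 (SD, n = 5) in wild type and 17.3 ± 2.92 in null, a log2 difference of -0.95 ± 0.11 (SE; 95% interval -1.18 to -0.72). InR fell in 3 d null by limma (adjusted p = 2.38e-07), where 33.8% of all probe sets tested passed the same threshold of an adjusted p under 0.05. The size of the difference depended on the offset added before taking logs, from -0.47 with 64 to -1.43 with 1. InR passed the filter through 15 of the 20 arrays, those of the groups other than 3 d null.

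At 20 d, InR signals were 67.0, 68.7, 73.8, 79.7 and 62.9 in wild type. They were 32.7, 43.3, 47.5, 29.2 and 25.0 in null. Again no array of one line overlapped the other, and the mean in wild type was 1.98 times that in null. With age, the InR mean went from 48.8 to 70.4 in wild type and from 17.3 to 35.5 in null. The gap between the ages in wild type was narrow, since the highest 3 d array and the lowest 20 d array were 0.515 units apart. The log2 differences with age were 0.43 ± 0.11 and 0.61 ± 0.11, and the former was 0.22 with quantile normalization. The order of the InR levels was 3 d null, 20 d null, 3 d wild type and 20 d wild type, and the middle pair of groups overlapped.

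The ligand Ilp5 had a different pattern. Its signals were 878, 850.2, 823, 885 and 897 in 3 d wild type. In 3 d null they were 853, 826, 858, 856 and 784. The ranges overlapped, with means of 867 ± 29.6 and 835 ± 31.3 (SD, n = 5). No difference was called at 3 d (log2 difference -0.05 ± 0.035, adjusted p = 0.285 by limma). The 95% interval of that difference ran from -0.13 to 0.02.

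At 20 d the lines had moved apart. Ilp5 signals were 1017, 999, 1019.95, 1022 and 1072 in 20 d wild type. They were 746, 704, 673, 734 and 694 in 20 d null. The lowest wild-type array was 253 units above the highest null array. Within wild type, every 20 d array was above every 3 d array, by at least 102 units, and the mean was 18.4% higher. Within null, every 20 d array was below every 3 d array, by at least 38.3 units, and the mean had dropped by 15.0%. The log2 difference with age was 0.24 ± 0.035 in wild type and -0.23 ± 0.035 in null. Of the 9806 probe sets tested, 1.43% had ages that did not overlap in either line and went in opposite directions, and 1.09% went up in wild type and down in null, as Ilp5 did. Both directions of Ilp5 held with quantile normalization and median centring of the arrays, which gave 0.34 and 0.14 in wild type and -0.17 and -0.32 in null.

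Ilp2, another peptide of the insulin-producing cells, was the only further insulin-like peptide above the expression filter. Its mean signals were 946 ± 77.0 at 3 d and 1177 ± 44.0 at 20 d in wild type, and 1015 ± 62.9 and 1060.4 ± 53.3 in null (SD, n = 5). Ilp2 rose with age in wild type by 0.31 ± 0.052 (limma adjusted p = 1.69e-05) and was not called in null (0.06 ± 0.052, adjusted p = 0.303), although quantile normalization gave a call there (0.18, adjusted p = 0.00157). The difference between these changes was itself called (-0.25 ± 0.073, adjusted p = 0.0179). In 20 d null, Ilp2 was lower than in 20 d wild type by a small amount, -0.15 ± 0.052 (adjusted p = 0.0209). That call was lost with median centring (adjusted p = 0.0759) and when any of 4 arrays was left out, replicates 1 and 4 of 20 d wild type or replicates 2 and 3 of 20 d null (adjusted p of 0.0516, 0.0515, 0.0579 and 0.0607). Ilp7 and Ilp8 had probe sets that lay below the filter, with no signal above 16.9. No signal of dimm, a transcription factor of peptide-secreting neurons, exceeded 4.8. Ilp1, Ilp3, Ilp4 and Ilp6 were not analysed here.

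Genes of secreted proteins that bind insulin-like peptides differed between the lines by small amounts. ImpL2, which binds and restrains insulin-like peptides, was higher in null by 0.14 ± 0.039 at 3 d and 0.13 ± 0.039 at 20 d (limma adjusted p = 0.00658 and 0.00748). It rose with age in both lines, by 0.33 ± 0.039 in wild type and 0.32 ± 0.039 in null. Sdr, a secreted decoy of the insulin receptor, was lower in null, with log2 differences of -0.21 at 3 d and -0.14 at 20 d.

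**Figure D2:**
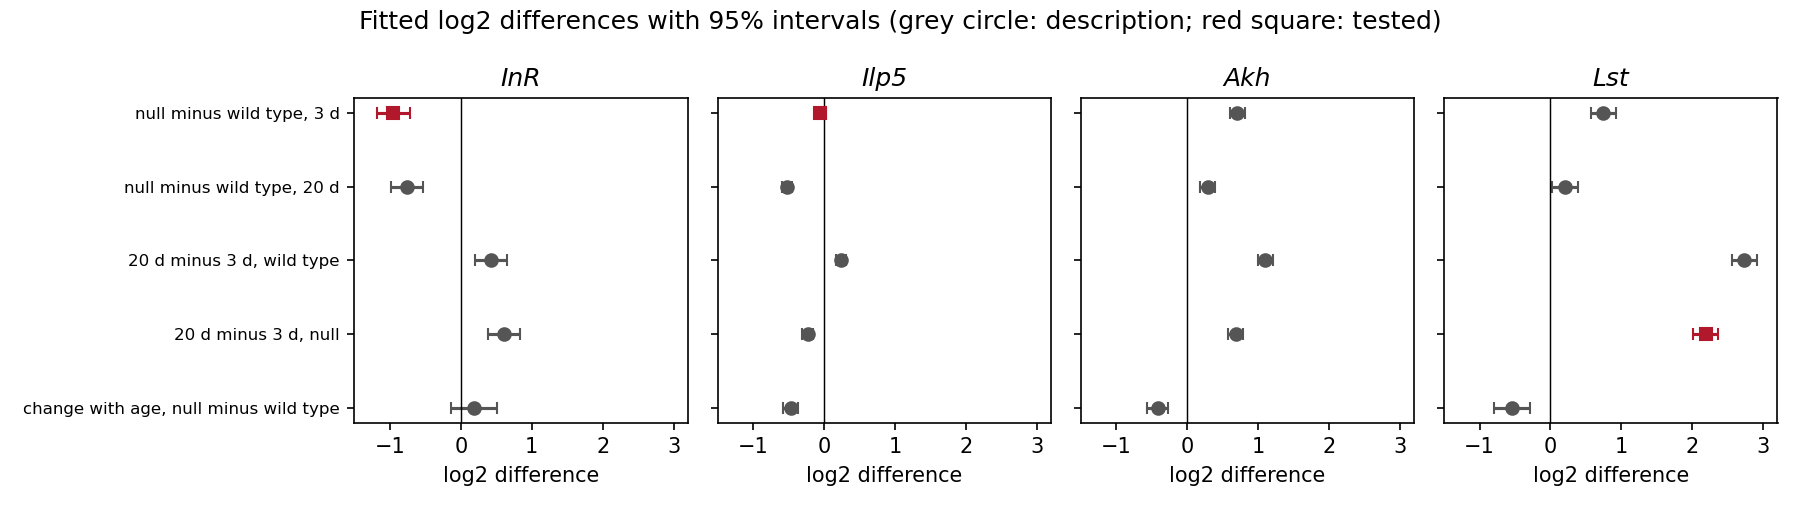
Fitted log2 differences (x axis, log2(signal + 16) scale) of InR, Ilp5, Akh and Lst in the 4 comparisons between groups and in the difference between the changes with age (rows). Whiskers are 95% intervals from the model, and red squares mark the 3 comparisons that were tested. InR lay below 0 for null against wild type at both ages, and the change of Ilp5 with age had opposite signs in the lines.

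Akh, the gland hormone, was higher at 20 d and higher in null. Its signals were 517, 485, 459, 487 and 507 in 3 d wild type. They were 822, 828, 831, 835 and 742 in 3 d null. In 20 d wild type they were 1139, 1074, 1040.2, 1018 and 1081, and in 20 d null 1495, 1248, 1209, 1392 and 1233. No pair of groups overlapped, and the order was 3 d wild type, 3 d null, 20 d wild type and 20 d null. The means were 491 ± 22.6, 811 ± 39.2, 1070.4 ± 45.9 and 1315 ± 123 (SD, n = 5) in that order. Against wild type, null was 1.65 times as high at 3 d (log2 difference 0.71 ± 0.052) and 1.23 times at 20 d (0.29 ± 0.052). With age the mean was 2.18 times as high in wild type (1.10 ± 0.052) and 1.62 times in null (0.68 ± 0.052).

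Lst, the other gland peptide, had a large difference between the ages. Its signals were 49.9, 64.8, 56.2, 49.5 and 58.5 in 3 d wild type. In 3 d null they were 86.2, 91.5, 121, 99.9 and 127. They were 460.3, 492, 438, 504 and 406 in 20 d wild type and 477, 538, 539, 513 and 595 in 20 d null. The lines were apart at 3 d, where the mean in null was 1.88 times that in wild type, and overlapped at 20 d. In null the mean went from 105 ± 18.1 to 532 ± 43.0 (SD, n = 5), 5.06 times as high. Lst rose with age in null by 2.19 ± 0.085 on the log2 scale (95% interval 2.01 to 2.37, limma adjusted p = 5.03e-16), where 58% of all probe sets tested passed the threshold. In wild type the mean at 20 d was 8.25 times that at 3 d (log2 difference 2.73 ± 0.085).

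Counted over the 4 genes, arrays of the lines did not overlap for 3 at 3 d (InR, Akh and Lst) and for 3 at 20 d (InR, Ilp5 and Akh). Among all probe sets tested that held for 24.3% at 3 d (null higher in 11.5%, lower in 12.8%) and 33.1% at 20 d (15.3% and 17.8%). InR was lower in null at both ages, as 7.7% of all probe sets were without overlap, and Akh was higher at both, as 6.83% were. Arrays of the ages did not overlap for 4 of 4 in wild type and for 4 of 4 in null, against 44.3% (20 d higher in 24.8%, lower in 19.5%) and 39.5% (23.1% and 16.4%) of all probe sets tested. The ages were apart with 20 d higher in both lines for InR, Akh and Lst, and for 16.1% of all probe sets tested. Since the genes were picked with these values known, nothing is read from the counts.

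Akh and Lst are gland genes, so the marker genes of the gland and of tissues beside the brain were set next to them. jhamt, which makes juvenile hormone in the corpora allata next to the corpora cardiaca, stood in the marker list of both glands. The jhamt signal was 137 to 159 for 3 d wild type and 306 to 324 for 3 d null. It was 592 to 630 for 20 d wild type and 894 to 1007 for 20 d null. Group means had the same order as for Akh and Lst, and no groups overlapped. Between the lines the log2 difference of jhamt was 1.04 ± 0.038 at 3 d and 0.60 ± 0.038 at 20 d, and it was 1.95 ± 0.038 and 1.51 ± 0.038 with age in wild type and null. jhamt was singled out after its values were seen, so these are descriptions with no test. Across the 20 arrays Pearson's r with jhamt was 0.979 for Akh and 0.964 for Lst, where the arrays share their 4 groups. Within groups these r were -0.42 and 0.26. The other 3 measured genes of that marker list, gl, Kr-h1 and AstC-R1, did not share the pattern. All 3 were called lower in 3 d null, against 18.4% of all probe sets tested. The list of both glands, without Akh and Lst, summed at 3 d to 703 to 785 in wild type and 660 to 731 in null. At 20 d it summed to 1115 to 1174 in wild type and 1281 to 1464 in null. There 2 members were called higher and 2 lower in null, against 20.9% and 24.6% of all probe sets tested. AstC-R1 lay between 131 and 244 on the wild-type arrays and between 27.8 and 42.0 on the null arrays. In the sums, higher jhamt and lower AstC-R1 in null offset each other in part.

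Summed signals of other tissues moved in several directions. The 9 gut and proventriculus markers with a probe set at 3 d summed to 157 to 178 in wild type and 2142 to 2249 in null. They summed to 244 to 276 in 20 d wild type and 103 to 128 in 20 d null. In 3 d null 7 of 7 measured gut markers were called higher, against 15.4% of all probe sets tested. Among them, Jon99Fi, Jon25Biii and betaTry passed the filter only through 3 d null, so their calls there were largely fixed in advance. Their means were 1.06, 4.07 and 14.3 in 3 d wild type and 533, 331 and 153 in 3 d null. In 20 d null 3 of 7 gut markers were called higher and 3 lower, against 20.9% and 24.6%. The 13 head fat body markers, which include CG4408, a gene with no role given here, summed to 4564 to 4780 in 3 d wild type and 8496 to 8822 in 20 d wild type. They summed to 3709 to 3798 in 3 d null and 5819 to 6327 in 20 d null. Muscle markers at 3 d summed to 550.2 to 624 in wild type and 1128 to 1180.3 in null, with 7 of 7 called higher, against 15.4% of all probe sets. Their sum lay between 788 and 897 in both 20 d groups. Blood cell markers were called higher at 20 d in 7 of 8 members in each line, against 30.7% of all probe sets in wild type and 32% in null. Among them, He and srp passed the filter through 20 d arrays alone, so their calls with age were largely fixed in advance. The fat body gene Fbp1 did not pass the filter. The part of gland, gut, fat body, muscle or blood cell content in the levels of Akh and Lst was not tested.

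**Figure D3:**
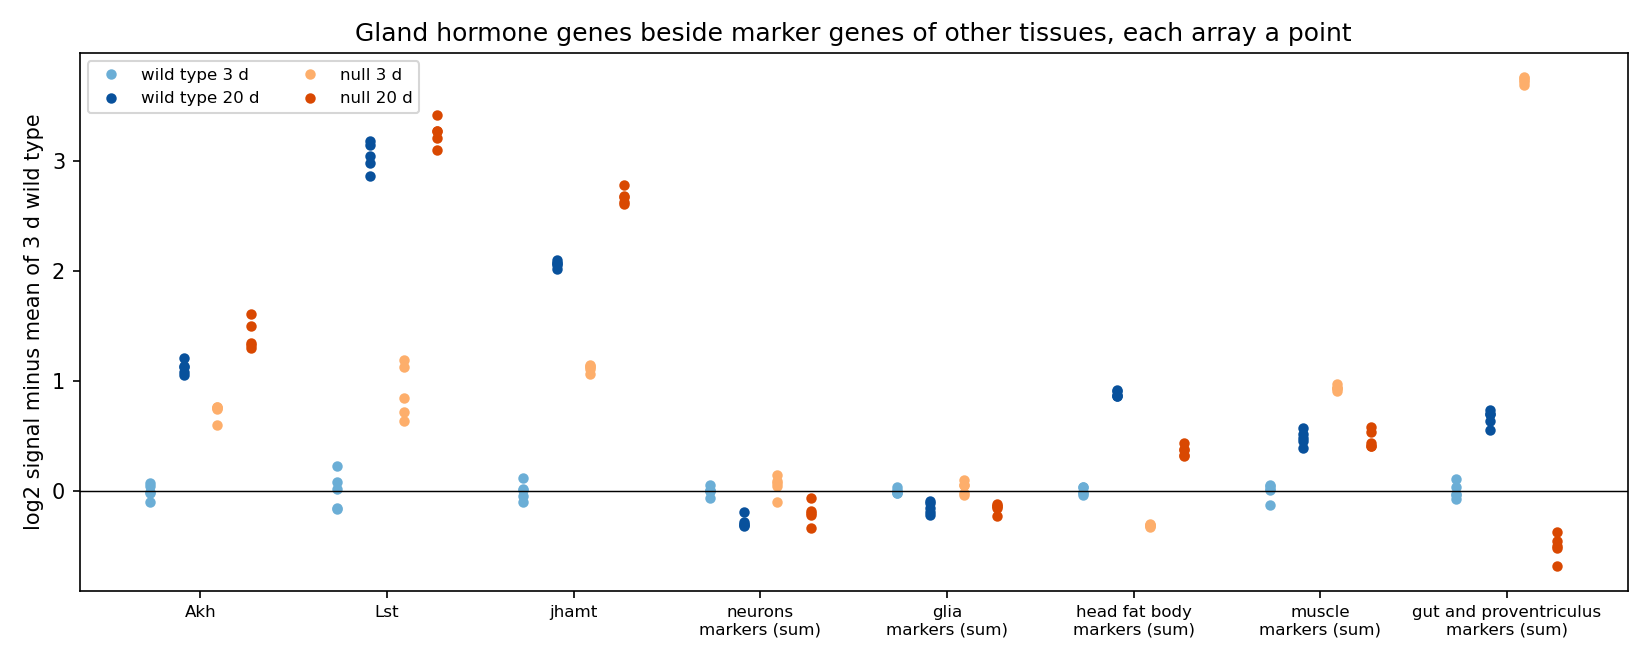
Log2 signal of Akh, Lst and jhamt, and of summed marker genes of 5 tissues, minus the mean of 3 d wild type (y axis), with each of the 20 arrays as a point coloured by line and age. Akh, Lst and jhamt shared the order 3 d wild type, 3 d null, 20 d wild type and 20 d null in their group means, and the gut sum was highest in 3 d null.

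Neuron markers were called lower with age in 7 of 10 members in each line, against 24.8% of all probe sets in wild type and 26% in null. In null, 2 of 10 were called higher at each age, against 15.4% at 3 d and 20.9% at 20 d. Of 7 glia markers, 3 were called lower and 2 higher with age in wild type, and 3 lower and 1 higher in null. Among all probe sets, 24.8% were called lower and 30.7% higher in wild type, and 26% lower and 32% higher in null. The insulin-producing cell list was left with Ilp2 alone above the filter once Ilp5 was set aside. Photoreceptor and eye markers were called lower in null in 5 of 5 members at 3 d and 4 of 5 at 20 d, against 18.4% and 24.6% of all probe sets. InR is expressed in many tissues, and the part of tissue content in its difference between the lines was not tested.

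The other genes of these pathways came from 7 lists of 124 names, of which 89 had a probe set and 77 passed the filter. At 3 d 24 of these 77 were higher in null and 13 lower, which is 48.1% called against 33.8% of all probe sets (15.4% higher and 18.4% lower), with a median log2 difference of 0.03 against -0.01. At 20 d 24 were higher and 22 lower, 59.7% against 45.5% (20.9% higher and 24.6% lower), with medians of 0.04 and -0.01. With age 30 rose and 16 fell in wild type, 59.7% against 55.6% (30.7% and 24.8%), and 28 rose and 20 fell in null, 62.3% against 58% (32% and 26%). Median centring of the arrays turned those last splits into 24 higher and 28 lower in wild type and 26 higher and 29 lower in null. Over all probe sets it turned 3013 higher and 2436 lower into 2033 and 3878 in wild type, and 3142 higher and 2550 lower into 2173 and 3866 in null. Quantile normalization gave 2234 and 3182 in wild type and 2600 and 3000 in null, so the direction of small changes with age depended on the scaling.

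**Figure D4:**
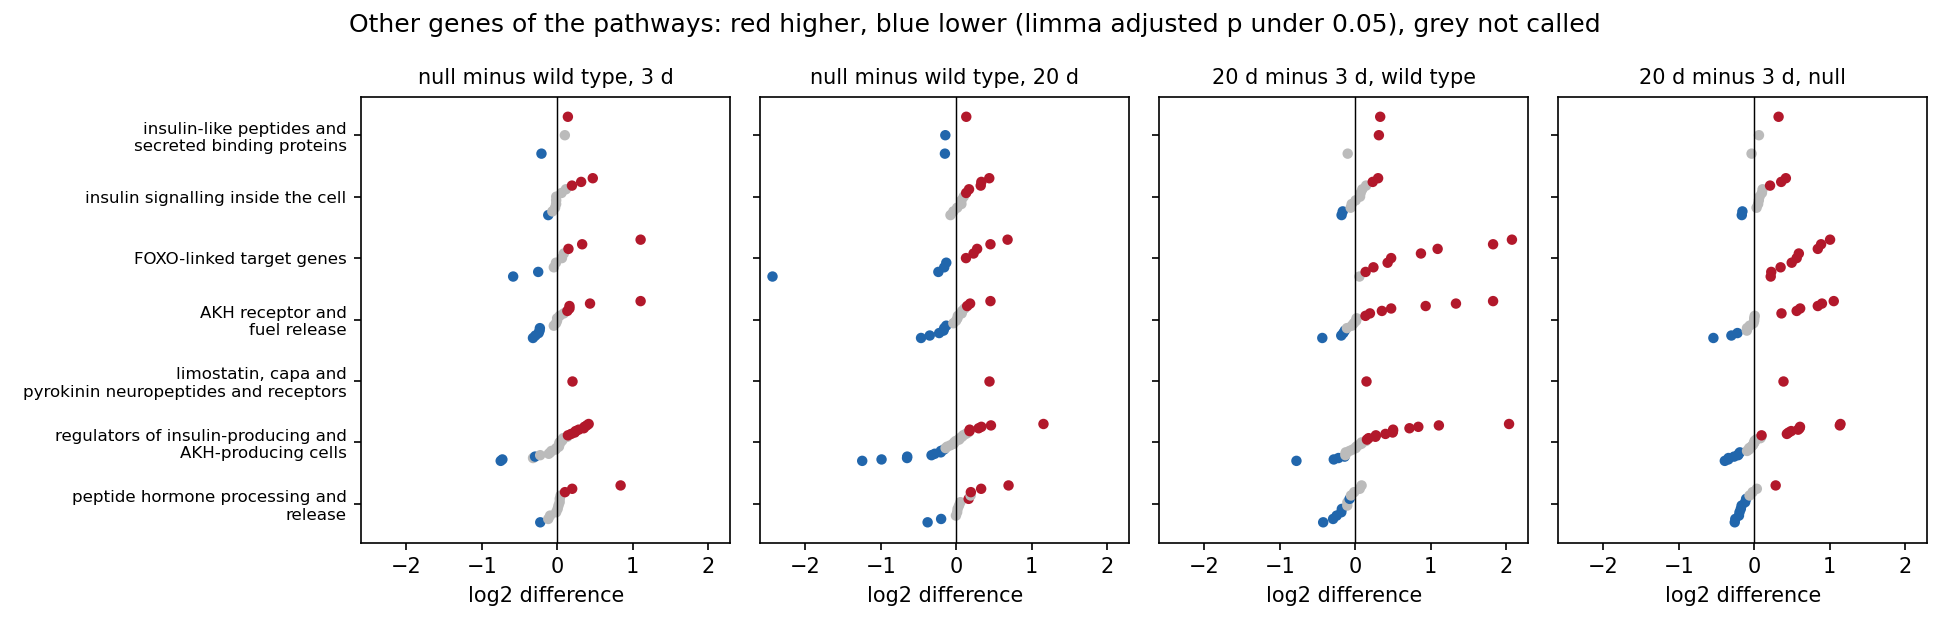
Log2 differences (x axis) of the 77 other pathway genes by list (rows) in the 4 comparisons between groups. Each point is a gene, red where it was called higher and blue where it was called lower at a limma adjusted p under 0.05. The FOXO-linked list lay on the right in both comparisons of age.

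Of 11 measured genes of insulin signalling inside the cell, 3 were higher and 1 lower in 3 d null, and 5 were higher and none lower in 20 d null. The shares called, 36.4% and 45.5%, were close to the 33.8% and 45.5% of all probe sets. The lower one was Akt (-0.12), which was not called with median centring (adjusted p = 0.0542). S6k, the growth kinase downstream of Tor, had the largest difference, 0.47 ± 0.072 at 3 d and 0.44 ± 0.072 at 20 d (limma adjusted p = 1.31e-05 and 2.37e-05). gig, which encodes the Tor inhibitor Tsc2, was higher by 0.32 ± 0.055 and 0.33 ± 0.055. chico, the adaptor of InR, was at -0.01 at 3 d and 0.13 at 20 d, and the latter was called. That call was lost without replicate 2 of 20 d wild type or replicate 3 of 20 d null (limma adjusted p = 0.0734 and 0.0612). With age, Akt rose by 0.23 ± 0.037 in wild type and 0.42 ± 0.037 in null, and foxo by 0.30 ± 0.052 and 0.36 ± 0.052. The gene of Lgr3, the receptor of the peptide Ilp8, was higher in 20 d null by 0.33. It was counted among the 11 genes and the 5 higher ones, although it encodes a receptor other than InR.

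Genes linked to Foxo rose with age. In wild type 8 of 9 measured members rose and none fell, and in null 9 of 9 rose, with medians of 0.48 and 0.56 against 0.02 for all probe sets in each line. Of all probe sets tested, 30.7% were called higher with age in wild type and 32% in null. The lipase gene Lip4, which Foxo switches on in starved flies, rose by 1.09 ± 0.051 in wild type and 1.01 ± 0.051 in null. Pepck1, a gluconeogenic enzyme gene, rose by 0.87 ± 0.058 and 0.89 ± 0.058. bmm, the fly's adipose triglyceride lipase gene, rose by 0.48 ± 0.039 and 0.84 ± 0.039 and was higher in 20 d null than in 20 d wild type by 0.45 ± 0.039. Nmdmc, a mitochondrial folate enzyme gene, was higher in null by 0.33 at 3 d and 0.68 at 20 d. These genes are expressed in fat body, whose markers were called higher at 20 d in 11 of 11 measured members in wild type and 8 of 11 in null. The gene tobi is in both lists, so the counts are not separate. The part of fat body content was not tested.

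Members of that list differed most between the lines in their change with age. tobi, an alpha-glucosidase gene whose name stands for target of brain insulin, had mean signals at 3 d of 47.6 ± 7.45 in wild type and 120.3 ± 4.69 in null (SD, n = 5). At 20 d it stood at 209 ± 9.24 in wild type and 186 ± 8.81 in null. tobi was higher in 3 d null by 1.11 ± 0.061 (limma adjusted p = 2.77e-13). It rose with age by 1.83 ± 0.061 in wild type and 0.56 ± 0.061 in null, a difference of -1.27 ± 0.086 (adjusted p = 2.92e-11). Pepck2 rose by 2.08 ± 0.062 in wild type, from 28.01 to 169.9 units. Its means in null were 13.4 units at 3 d and 18.4 units at 20 d, and the difference between the changes with age was -1.85 ± 0.088 (adjusted p = 2.79e-14).

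Between the lines, the receptor gene of Akh did not follow its ligand at 3 d. AkhR had mean signals of 120.2 ± 3.43 at 3 d and 140.1 ± 6.72 at 20 d in wild type, and of 100.3 ± 7.35 and 162 ± 17.8 in null (SD, n = 5). It was lower in null at 3 d, by -0.23 ± 0.06, and higher at 20 d, by 0.18 ± 0.06 (limma adjusted p = 0.00418 and 0.0144). With age AkhR rose by 0.61 ± 0.06 in null (adjusted p = 6.66e-09) and by 0.20 ± 0.06 in wild type, where the call was lost with quantile normalization and with median centring. The difference between these changes was 0.41 ± 0.085 (adjusted p = 0.000873). A further AkhR probe set lay below the filter.

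Among 16 measured genes of AKH signalling and fuel release, 5 were higher and 5 lower in 3 d null, and 3 higher and 6 lower in 20 d null, or 62.5% and 56.2% called against 33.8% and 45.5% of all probe sets. With age 7 rose and 4 fell in wild type, and 6 rose and 3 fell in null, or 68.8% and 56.2% against 55.6% and 58%. With median centring 5 were higher and 6 lower with age in wild type, and 6 and 6 in null. Lsd-1, a lipid droplet coat gene, rose by 0.94 ± 0.041 in wild type and 1.06 ± 0.041 in null. Tps1, which makes trehalose, rose by 1.34 ± 0.036 and 0.90 ± 0.036 and was higher in 3 d null by 0.44 ± 0.036. Glys, the glycogen synthase gene, was lower in null by -0.32 ± 0.03 at 3 d and -0.47 ± 0.03 at 20 d, and fell with age in both lines. Gpdh1, a glycerol phosphate enzyme gene, was lower in null by -0.25 and -0.35 on its strongest probe set, but its 3 other probe sets did not share that difference at both ages. Galphaq, the G protein of the AKH receptor, was not called between the lines on its strongest probe set, whereas another of its probe sets was lower in null by -0.97 at 3 d and -1.16 at 20 d.

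For limostatin's own relatives, Capa was the single measured gene. It encodes capability peptides, and was higher in null by 0.20 ± 0.04 at 3 d and 0.43 ± 0.04 at 20 d (limma adjusted p = 0.000414 and 4.42e-09). Capa rose with age by 0.38 ± 0.04 in null. Its rise of 0.15 ± 0.04 in wild type was not called with median centring. PK1-R, the pyrokinin receptor reported to bind limostatin, was at most 4.6 units on any array, below the filter, so no change could be measured.

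Of 27 measured regulators of the hormone-producing cells, 9 were higher and 3 lower in 3 d null, and 6 were higher and 9 lower in 20 d null, or 44.4% and 55.6% called against 33.8% and 45.5% of all probe sets. SIFa, a neuropeptide gene of a few brain neurons that act on feeding, was at 327 ± 14.0 at 3 d and 184 ± 10.9 at 20 d in wild type, and at 422 ± 12.6 and 430.2 ± 8.86 in null (SD, n = 5). It fell with age in wild type by 0.78 and was not called in null (0.03 ± 0.039). Its receptor gene SIFaR was lower in null by -0.75 ± 0.082 at 3 d and -1.25 ± 0.082 at 20 d (limma adjusted p = 8.06e-08 and 8.76e-12). The leucokinin receptor gene Lkr was lower in null by -0.73 ± 0.062 and -0.99 ± 0.062. The octopamine receptor gene Octbeta1R was higher in null by 0.42 at 3 d and 0.33 at 20 d. Gbp1 and Gbp2 encode growth-blocking peptides, which carry a nutrient signal from fat body to the insulin-producing cells in larvae. Gbp1 rose with age by 1.11 ± 0.068 in wild type and 1.14 ± 0.068 in null, and Gbp2 by 2.04 ± 0.041 and 1.15 ± 0.041.

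egr, the fly's tumour necrosis factor gene, changed with age in opposite directions, like Ilp5. Its mean signal went from 305 ± 10.1 to 371 ± 6.57 in wild type, and from 376 ± 7.61 to 293 ± 7.26 in null (SD, n = 5). It rose by 0.27 ± 0.031 in wild type and fell by 0.34 in null (limma adjusted p = 1.1e-07 and 1.66e-09). A second egr probe set gave 0.29 and -0.42.

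Of 12 measured genes that process and release peptide hormones, none rose and 6 fell with age in wild type, and 1 rose and 8 fell in null. That is 50% and 75% called in either direction against 55.6% and 58% of all probe sets. Of all probe sets, 24.8% were called lower in wild type and 26% in null. amon, the convertase that cuts prohormones, fell by 0.18 in wild type and 0.17 in null. The falls of this list depended on the scaling. With quantile normalization 3 of the 6 falls in wild type and 1 of the 8 in null were still called, and amon was not called in either line. Median centring kept all 6 and all 8. Sytbeta, a synaptotagmin gene, was higher in null by 0.84 ± 0.056 at 3 d and 0.69 ± 0.056 at 20 d (limma adjusted p = 1.16e-11 and 3.44e-10).

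**Figure D5:**
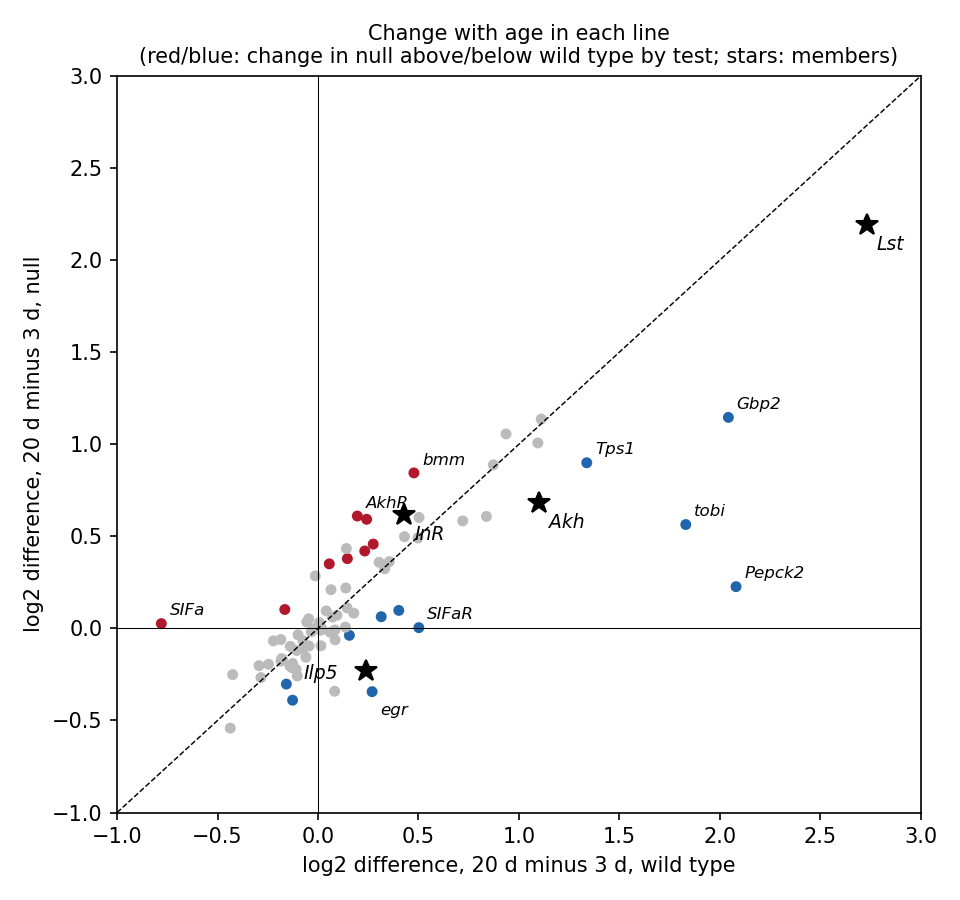
Log2 difference of 20 d against 3 d in wild type (x axis) and in null (y axis) for the 77 other pathway genes (points) and the 4 member genes (stars), with a dashed line where both changes are equal. Red and blue points had a change in null above and below that in wild type by limma's test of the difference, and grey points were not called. Ilp5 and egr lay below the horizontal axis and right of the vertical axis, and Pepck2, tobi and Gbp2 lay below the dashed line.

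Over the whole pathway set, 20 of 77 genes were called in the difference between the changes with age, 9 higher and 11 lower, or 26.0% against 17% of all probe sets (7.61% higher and 9.38% lower). That of Lkr was lost in many alternatives. For the 4 member genes that difference was 0.19 ± 0.15 for InR, -0.47 ± 0.05 for Ilp5, -0.42 ± 0.073 for Akh and -0.54 ± 0.12 for Lst, as descriptions.

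The genes whose levels over the 20 arrays were most like each member were taken by Pearson's r among 7700 genes, as a description with no test. The arrays share their 4 groups, so a high r mostly reflects a shared order of the groups. For InR they were sxe2 (r = 0.953), jumu (0.951) and pst (0.945). The mean signal of pst was 607 at 3 d and 884 at 20 d in wild type, and 274 and 481 in null. For Ilp5 they were Spt-I (0.959), CG6126 (0.952) and NimB4 (0.946). Spt-I, a subunit gene of serine palmitoyltransferase, stood at 363 and 424 in 3 d and 20 d wild type and at 345 and 290.1 in 3 d and 20 d null. For Akh they were Vago (0.988), CG30026 (0.983) and PGRP-SB1 (0.982), and for Lst Cyp6a23, BomS6 and Cyp6g1 (0.991 each). With the group means removed, r for these 12 genes ran from -0.34 for Cyp6g1 to 0.67 for jumu.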

How the data were processed

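Total RNA of dissected brains was biotin-labelled and hybridised to 1-colour Affymetrix Drosophila 2 arrays. The authors deposited 1 linear signal intensity for each probe set on each array. MAS5 and GCRMA are named, without versions, per the submitters' processing notes, and the labels' descriptions point to MAS5 files. The 2% trimmed mean was 150.002 on every array, and the values were used as deposited.

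Control probe sets (183 of 18952) were left out. Genes were named from the 13647 probe sets with a single symbol, not from the 402 with several or the 4720 with none. Genes of the lists were matched by gene identifier through the RefSeq table (Release 6), which lacked 103 of the 13647, with 4 names matched by synonym and 6 not matched. A gene with several probe sets was represented by the one of highest mean. Probe sets above their array's median in at least 5 of 20 arrays were kept (9806, for 7704 genes). Group means of log2(signal + 16) were fitted over all 20 arrays with limma 3.58.1 (R 4.3.3), with a mean-variance trend and robust moderation. Benjamini-Hochberg adjustment ran over all 9806 probe sets in each comparison, and a call is an adjusted p under 0.05. The fit was tested on simulated data. The number of arrays limits the precision.

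The members and gene lists were chosen with earlier results of these data known. The rule for names took 12 set genes where measured, the 3 called genes of largest change in each list and comparison, and the 3 genes most alike each member. Not all of them are printed. jhamt and the other single marker genes were named after their values were seen. Alternatives changed the offset, filter, scaling, arrays used, moderation and replicate block. Gene sequences were not used here.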

Additional observations from a re-analysis of the deposited data

Results flagged for a closer look

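Ilp5 was higher on every 20 d array than on any 3 d array in wild type, and lower on every 20 d array than on any 3 d array in null. The log2 change in null less the one in wild type was -0.47, and this difference was not tested.

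For the pathway genes named by the rule, limma's test of the difference called the following. The change with age was lower in null than in wild type for Pepck2 (-1.85), tobi (-1.27), Gbp2 (-0.90), egr (-0.61), SIFaR (-0.50), Tps1 (-0.44), Lkr (-0.26), Ilp2 (-0.25) and Glys (-0.14). It was higher in null for SIFa (0.81), AkhR (0.41), bmm (0.37), Nmdmc (0.35), Lgr3 (0.27), Capa (0.23) and Akt (0.19). The call of Lkr was at the threshold (adjusted p = 0.0414) and was lost in 16 of the alternatives, 12 of which left out 1 array.

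Single arrays also stood apart from the other 4 of their group. The gap to the nearest array, divided by the range of the group, was 0.858 for Akh in 3 d null, where 1 array read 742 and the median was 828. It was 0.804 for AkhR in 20 d null, where 1 array read 131 and the median was 167. In 3 d wild type the ratio was 0.743 for eIF4E1, 0.719 for ImpL2, 0.719 for bmm and 0.763 for Nmdmc. In 20 d wild type it was 0.729 for Cadps and 0.814 for Pal2. In 3 d null it was 0.745 for Nlg2, 0.751 for Pal2 and 0.734 for Lgr3, and in 20 d null 0.894 for Cals and 0.717 for eIF4E1. The critical value for 5 arrays is 0.71, and 13 of 168 groups passed it, where chance gives about 1 in 20.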

How the results depend on the processing

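Each result was recomputed under 29 alternatives, 20 that left out 1 array and 9 others. The 3 tested calls of the members kept their side of the threshold in all of them, with adjusted p of 1.40e-08 to 1.71e-06 for InR, 0.161 to 0.551 for Ilp5 and 8.32e-17 to 1.21e-10 for Lst. No member's difference changed sign. An offset of 1 gave -1.001 for InR between the lines at 20 d, 0.97 with age in null and 0.43 for the difference between the changes with age, and 3.02 for Lst with age in wild type. An offset of 64 gave -0.44 for InR between the lines at 20 d and 0.29 with age in null, and for Lst 0.49 between the lines at 3 d, 2.13 with age in wild type and -0.31 for the difference between the changes. By construction a larger offset shrinks differences of low signals. Quantile normalization gave, with age, 0.22 for InR and 0.34 for Ilp5 in wild type, and -0.17 for Ilp5 and 0.78 for Akh in null. It reversed Pal2, which gave 0.072 with age in wild type and 0.022 in null against -0.074 and -0.11. Median centring gave, with age, 0.14 for Ilp5 and 1.00 for Akh in wild type, and -0.32 and 0.59 in null. It also gave 28 pathway genes lower with age in wild type against 16. The cause of these shifts with scaling was not tested.

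Whether repeat numbers pair the samples is not given by the labels. Deviations of samples with the same number correlated at -0.184 to 0.554 (median 0.110), and those with different numbers at -0.588 to 0.398 (median -0.032). Of the 30 same-number pairs 16 were over 0.1, among them all 6 of repeat 1, and 23 of 60 best matches carried the sample's own number. Not every pair passed 0.1, so the fit without the block was kept, although same-number samples were more alike in the median. Failing that rule does not show that pairing was absent. With the number as a replicate block, InR at 3 d gave an adjusted p of 3.47e-07, and 37, 48, 48 and 48 pathway genes were called in the 4 comparisons, and 19 in the difference between the changes with age. The block changed no call of the members. Signals close to the offset of 16, such as InR in 3 d null and Pepck2 in null at both ages, limit how well a fold can be measured.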
